A study of Mus musculus with 2 samples.

Results

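Thymic chemokine receptors were examined as a set of 9 genes, Ccr9, Ccr7, Ccr4, Ccr8, Ccr6, Ccr2, Cxcr4, Cxcr3 and Cx3cr1, among 16504 genes measured on 2 two-colour microarrays. The set was listed by name, and each gene was matched through the platform's gene symbol, which found 1 feature for every member. RNA came from mice null for the gene under study and from wild-type controls. Equal amounts from 3 animals were pooled per genotype, and the labels call the source thymus and the cells thymocytes, the developing T cells of that organ. Age, sex and strain are not given in the sources used here. The same 2 pools were hybridised to both arrays with the dyes exchanged, so the arrays are 1 replicate of 1 pool per genotype. No p-value could therefore be had, mouse-to-mouse spread is unknown, and each SD given is technical, taken over the 2 arrays.

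Chemokine receptors are heptahelical proteins that couple mainly to inhibitory G proteins and steer cells along gradients of secreted chemokines. In the thymus they act in stages: Cxcr4, Ccr9 and Ccr7 serve the entry and early placement of progenitors, Ccr9 stays high in double positive cells of the cortex, and Ccr7 and Ccr4 appear after positive selection and draw cells to the medulla. Ccr8, Ccr6 and Cxcr3 are best known from subsets of mature, regulatory or innate-like T cells, and Ccr2 and Cx3cr1 from monocytes and macrophages.

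All values are log2 ratios of null over wild type. The file does not state this direction, which is inferred and likely: on the first array it follows from the dyes, and in the second column zeros written -0 point to values already turned. A gene was called higher or lower where it passed 1.5-fold, or 0.58 in log2, the same way on both arrays. By this rule 1 of the 9 receptors, Ccr9, fell in the null pool and none rose, while 1.11% of all genes were called lower and 0.412% higher. All 9 receptors lay below 0 on both arrays, a position shared by 25.0% of all genes. That position rests on the inferred direction: with the second column turned, all 9 would lie on opposite sides of 0 on the 2 arrays. The median of the 9 was -0.12, with array medians of -0.15 on each array, beside a median of 0.00093 over all genes. For most members the distance from 0 was small, and 7 of the 9 lay between -0.21 and -0.049. The file holds ratios only, so neither the level of a receptor in either pool nor its signal over background is known, and the labelled tissue could not be checked against the level of its markers.

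**Figure D1:**
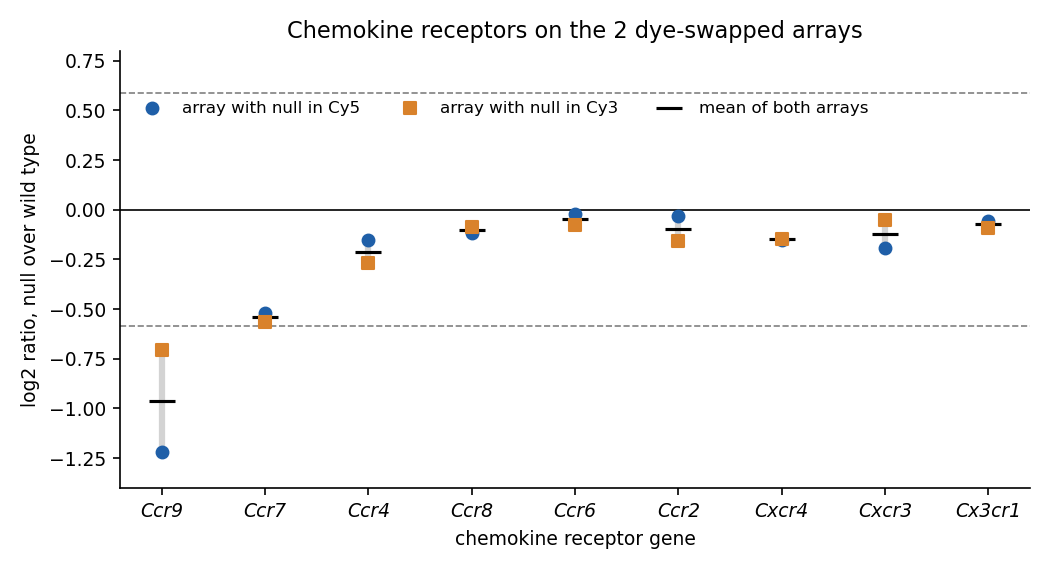
Log2 ratio of null over wild type (vertical axis) for the 9 chemokine receptors with null labelled in Cy5 (circles) or Cy3 (squares), with the mean of both as a bar and the 1.5-fold limits dashed. Ccr9 is past the lower limit on both arrays, Ccr7 stops just short of it on both, and the other 7 lie close to 0.

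Ccr9, the receptor for the epithelial chemokine Ccl25 and a mark of double positive thymocytes, was the receptor that moved most. It stood at -1.22 with null in Cy5 and at -0.70 after the dye exchange, with null in Cy3. Both arrays thus placed it lower in the null pool, by 2.33-fold and 1.63-fold. Its mean of -0.96 (SD 0.36, 2 arrays) corresponds to a 1.95-fold difference, and 0.509% of genes had a lower mean. The 2 readings of Ccr9 were further apart than those of most genes, since 89.0% of genes had an SD between arrays no larger than its own. In pooled RNA, fewer Ccr9-bearing cells and less Ccr9 RNA per cell cannot be told apart.

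Ccr7, which responds to Ccl19 and Ccl21 and directs newly selected thymocytes into the medulla, had the next lowest mean, a rank that the raw reading of both columns does not keep (0.024). Its ratio was -0.52 where null carried Cy5 and -0.57 where it carried Cy3. The readings nearly coincided, and both fell short of the 0.58 limit, so Ccr7 was not called. Its mean was -0.54 (SD 0.034), a 1.46-fold difference, and 2.03% of genes had a lower mean. At a looser limit of 1.3-fold on both arrays Ccr7 joined Ccr9, making 2 of 9 receptors lower and none higher, where 2.30% of all genes were lower and 1.63% higher. At 2-fold no receptor was called in either direction, while 0.261% of all genes were lower and 0.0424% higher.

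Ccr4, the receptor for Ccl17 and Ccl22 that appears early after positive selection, was nearer to 0. It read -0.15 for null in Cy5 and -0.27 for null in Cy3, with a mean of -0.21 (SD 0.081). A lower mean was found in 8.77% of genes, so a ratio of this size was common on these arrays. Ccr8, the receptor for Ccl1 and in the mouse also Ccl8, read -0.12 and -0.088 on the same arrays, with a mean of -0.10 (SD 0.022). Cxcr4, the Cxcl12 receptor of early progenitors, gave almost the same ratio on both, -0.15 on each array (SD 0.0029). Its mean of -0.15 is a 1.11-fold difference.

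Receptors known from effector, innate-like and myeloid cells had means between -0.12 and -0.049. Cxcr3, which binds Cxcl9, Cxcl10 and Cxcl11, read -0.19 for null in Cy5 and -0.052 for null in Cy3, a mean of -0.12 (SD 0.10). Ccr2, the monocyte receptor for Ccl2, Ccl7 and Ccl12, read -0.034 and -0.16, a mean of -0.095 (SD 0.086). For Cxcr3 and Ccr2, and for Ccr6 below, the SD was close to the ratio itself. Cx3cr1, the fractalkine receptor of macrophages, read -0.055 for null in Cy5 and -0.090 for null in Cy3, a mean of -0.073 (SD 0.024). Ccr6, the Ccl20 receptor known from type 17 T cells and B cells, was likewise near 0, with -0.022 and -0.076 and a mean of -0.049 (SD 0.038). For Ccr6, 32.5% of genes had a lower mean. An SD from so few arrays is itself imprecise, so a small one does not set a ratio clear of noise. Over all genes the SD between arrays had a median of 0.12 and a root mean square of 0.25. The means of Cxcr3, Ccr2, Cx3cr1 and Ccr6, and those of Ccr4, Ccr8 and Cxcr4, were all smaller in size than that root mean square. It describes a single array reading, however. For a mean of 2 arrays the matching spread is the SD over genes of the array difference divided by 2, which was 0.18. Ccr4, at -0.21, exceeded that spread in size by little, and the others named here did not.

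In the order of their ratios, Ccr9 and Ccr7 were 0.42 apart and Ccr7 and Ccr4 were 0.33 apart, and in neither pair did the array readings overlap. The first gap exceeded the SD of Ccr9, 0.36, by little. From Ccr4 onward the gaps between neighbours ran from 0.0086 to 0.063. The readings of Ccr4 and Cxcr4 did not overlap either, though their gap of 0.063 was smaller than the SD of Ccr4, and among the remaining 6 receptors every pair of neighbours overlapped in its array readings. The order of neighbours among these 6 is therefore not resolved by these arrays, though some pairs further apart, such as Cxcr4 and Ccr6, did not overlap.

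The 250 bases before the transcription start of Ccr9 and Ccr6 are shown. Ccr9 had the lowest mean of the set, -0.96, and Ccr6, at -0.049, was among those near 0. The Ccr6 window shown was also the only 1 of 9 receptor windows with a match in the search below. The windows were searched on both strands for AGGTCA, a half-site that many nuclear receptors recognise, and for the longer TAGGTCA, which contains it. Both come from RefSeq on build GRCm38.p6, plus strand, at chr9:123766961-123767210 for Ccr9 and chr17:8235793-8236042 for the first of the 2 listed Ccr6 starts. Capitals mark the match, which reads TAGGTCA on the opposite strand.
Ccr9: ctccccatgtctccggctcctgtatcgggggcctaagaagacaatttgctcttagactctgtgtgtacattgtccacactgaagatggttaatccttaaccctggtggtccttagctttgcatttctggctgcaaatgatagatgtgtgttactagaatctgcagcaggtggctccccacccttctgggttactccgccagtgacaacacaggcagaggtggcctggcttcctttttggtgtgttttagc
Ccr6: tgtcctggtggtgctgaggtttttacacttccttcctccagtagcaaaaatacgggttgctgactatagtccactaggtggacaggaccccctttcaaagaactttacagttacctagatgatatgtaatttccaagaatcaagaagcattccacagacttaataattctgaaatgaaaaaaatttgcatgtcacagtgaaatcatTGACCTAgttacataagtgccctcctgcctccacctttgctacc
The Ccr6 match lies 44 to 38 bases before the start, and Ccr9 has no match in its window. Of 32851 windows of this length in the table, 14.0% hold AGGTCA and 2.23% hold TAGGTCA. A window was listed for 8 of the 9 receptors, all but Ccr7, giving 9 windows, of which the other 8 hold neither motif. For AGGTCA, 1 window of 9 is near the share of all windows. A match is a run of letters only and was not tested as a site.

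Several ligands of these receptors were lower by more than the receptors. Of the 16 measured, 5 fell in the null pool and none rose, beside 1.11% of all genes called lower, and the median of the 16 was -0.20, with array medians of -0.30 for null in Cy5 and -0.16 for null in Cy3. The 5 were Ccl22, Ccl21c, Ccl12, Cxcl10 and Ccl20. They bind 5 different receptors, Ccr4, Ccr7, Ccr2, Cxcr3 and Ccr6, none of which was itself called at 1.5-fold. Most genes were not called either, and at 1.3-fold Ccr7 was called lower. Chemokine genes of this kind are made mostly by stromal, epithelial and myeloid cells.

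Within some ligand and receptor pairs the sizes were unlike, and in others they were close. Ccl22, which macrophages and dendritic cells make, stood at -2.26 for null in Cy5 and -1.64 for null in Cy3, a mean of -1.95 (SD 0.43), while its receptor Ccr4 stood at -0.21. Ccl17, the other Ccr4 ligand, was not called at -0.29 and -0.078, and its mean of -0.19 was close to that of Ccr4. Ccl20 stood at -1.09 and -1.43, a mean of -1.26 (SD 0.25), beside -0.049 for Ccr6. The pair of Ccr9 ran the other way, for Ccl25 was not called at -0.30 and -0.12, a mean of -0.21 (SD 0.13), while Ccr9 was.

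Ccr7 had ligands of both kinds. Ccl21c stood at -1.79 for null in Cy5 and -2.08 for null in Cy3, a mean of -1.94 (SD 0.20), and its assignment is uncertain because the Ccl21 genes are near-identical copies. Ccl19 lay on opposite sides of 0, at 0.072 and -0.13. Among the Ccr2 ligands Ccl12 stood at -1.50 and -1.76, a mean of -1.63 (SD 0.18), whereas Ccl2 (-0.079) and Ccl7 (0.018) stayed near 0. Of the Cxcr3 ligands, which interferon induces, Cxcl10 stood at -1.05 and -1.71, a mean of -1.38 (SD 0.47). Cxcl9 passed the limit on only 1 array, at -0.40 and -0.94, and Cxcl11 was at -0.053. Ccl8, a Ccr8 ligand, likewise passed on only 1 array, at -0.49 and -0.77. Ccl1 (-0.012), Cxcl12 (-0.043) and Cx3cl1 (-0.085) were not called. The 2 features of Cx3cl1 disagreed, with -0.16 and -0.23 for the first and -0.045 and 0.093 for the second.

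**Figure D2:**
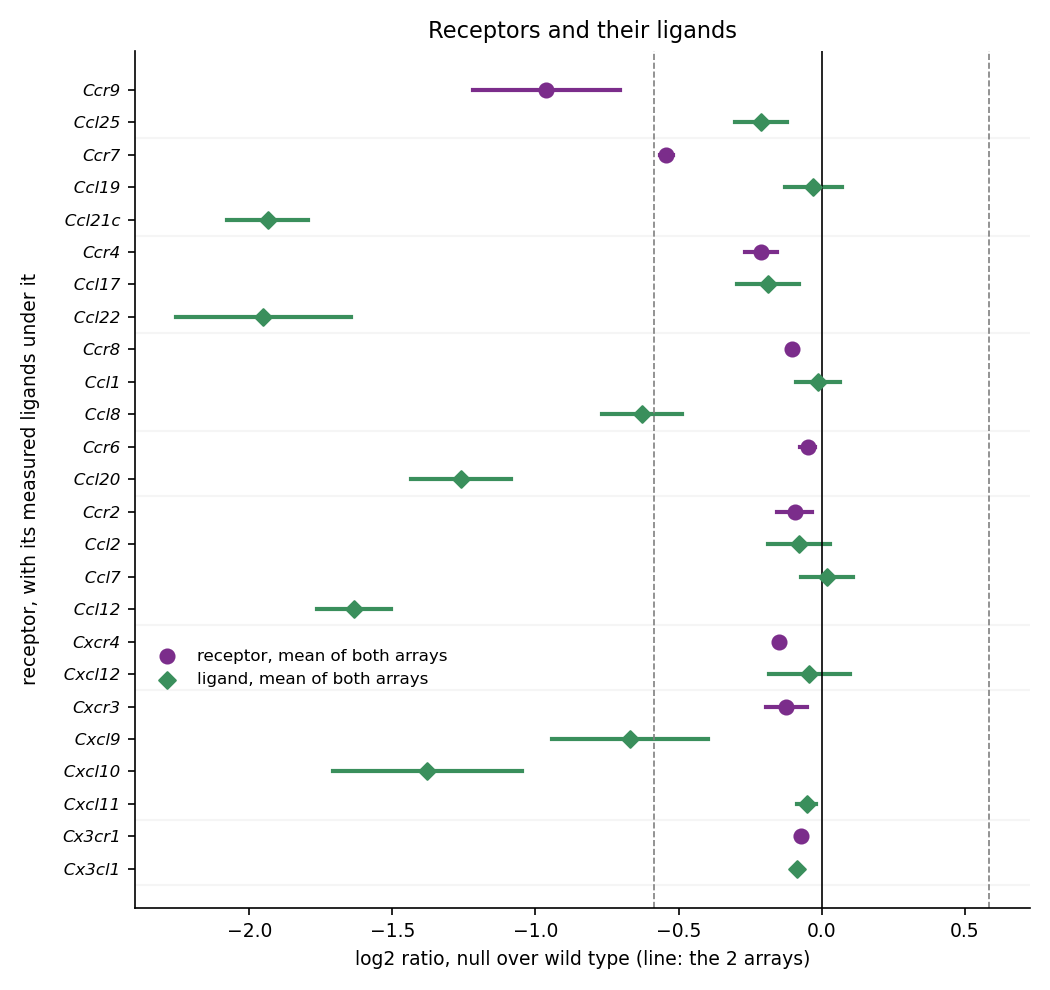
Log2 ratio of null over wild type (horizontal axis) of each receptor (purple circles) and, under it, of its measured ligands (green diamonds); a line joins the readings of the 2 arrays and the 1.5-fold limits are dashed. Ccl21c, Ccl22, Ccl20, Ccl12 and Cxcl10 lie far left of their receptors, and Ccr9 lies left of Ccl25.

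Among 13 other chemokine receptors measured, Cxcr6 alone fell and none rose, beside 1.11% of all genes called lower. Their median was -0.019, with array medians of -0.040 with null in Cy5 and -0.036 with the dyes exchanged. Cxcr6, a receptor of innate-like T and NK cells, stood at -0.65 for null in Cy5 and -0.90 for null in Cy3, a mean of -0.77 (SD 0.18). Of the 13, 5 lay below 0 on both arrays, where 25.0% of all genes and all 9 of the listed receptors did. Between the arrays 7 of the 13 differed in sign, as did 8259 of the 16504 genes. Ccr10 went opposite ways, at -1.52 for null in Cy5 and 2.22 for null in Cy3, as 0.436% of all genes did at 1.5-fold or more.

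**Figure D3:**
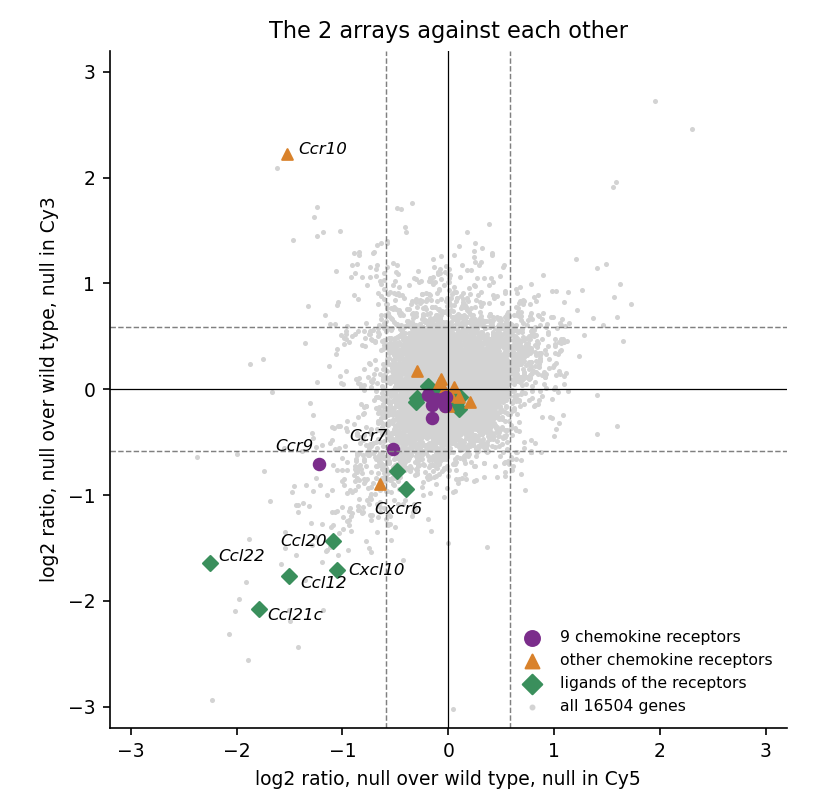
Log2 ratio of null over wild type for null in Cy5 (horizontal axis) against null in Cy3 (vertical axis) for all 16504 genes (grey), with the 9 receptors (purple circles), other chemokine receptors (orange triangles) and ligands (green diamonds); dashed lines mark 1.5-fold. Ccr9, Cxcr6 and the 5 lower ligands occupy the lower left corner, and Ccr10 the upper left.

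Several receptor genes are neighbours on mouse chromosome 9, where Ccr9, Ccr4, Ccr8, Ccr2 and Cx3cr1 of the set lie. In the order of protein-coding genes of GRCm38.p6, Ccr9 is followed by Fyco1, Cxcr6, Xcr1, Ccr1, Ccr1l1, Ccr3 and Ccr2. The receptors called lower, Ccr9 (-0.96) and Cxcr6 (-0.77), flank Fyco1, which was at -0.084 (SD 0.072). Next to them, Xcr1 (-0.019), Ccr1 (0.043), Ccr1l1 (0.060) and Ccr3 (0.014) differed in sign between the arrays, and Ccr2 was at -0.095. On the far side of Ccr9, Lztfl1 read -0.12 for null in Cy5 and -0.67 for null in Cy3. Neighbours of a lower receptor were thus not lower throughout. Cx3cr1 (-0.073) and Ccr8 (-0.10) adjoin each other elsewhere on the chromosome, and neither was called.

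**Figure D4:**
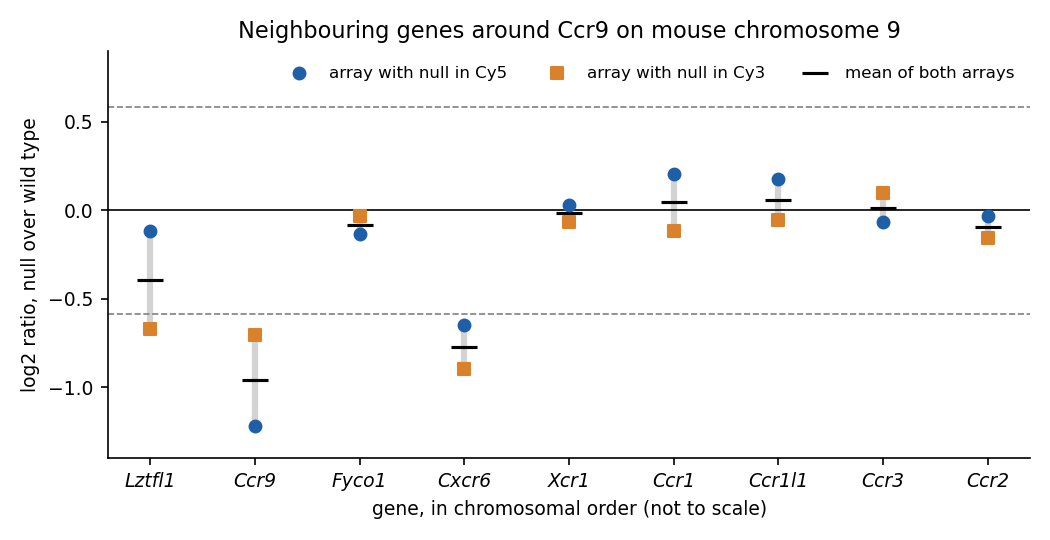
Log2 ratio of null over wild type (vertical axis) for consecutive genes around Ccr9 on mouse chromosome 9, with circles for the array with null in Cy5, squares for the array with null in Cy3, bars for their mean and dashed 1.5-fold limits. Ccr9 and Cxcr6 are below the limit on both arrays, and Fyco1 between them is near 0.

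Of 34 measured genes that carry or limit the receptors' signal, 2 fell and none rose, beside 1.11% of all genes called lower. The 2 were Rgs1 and Rgs2, which speed the shutdown of G protein signals. The median of the 34 was -0.059, with array medians of -0.11 for null in Cy5 and -0.089 for null in Cy3. Rgs1 stood at -0.79 for null in Cy5 and -0.86 for null in Cy3, a mean of -0.82 (SD 0.050), and Rgs2 at -0.65 and -0.60, a mean of -0.63 (SD 0.033). Rgs10, another of this family, averaged -0.63 but passed the limit on only 1 array (-0.46 and -0.79). The G protein subunit gene Gnai2 (0.010), the arrestin gene Arrb2 (-0.022) and the Rac activator gene Dock2 (-0.26), which drives lymphocyte movement, were not called.

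Among 13 other migration receptors and adhesion genes, Itgb2, the integrin beta chain of leukocytes, fell and none rose, beside 1.11% of genes lower. The list had a median of -0.14 and array medians of -0.16 and -0.069. Itgb2 stood at -0.80 for null in Cy5 and -0.65 for null in Cy3, a mean of -0.73 (SD 0.10). Its partner chain Itgal read -0.85 and -0.26, and Plxnd1, a semaphorin receptor of cortical thymocytes, read -0.96 and -0.40, each past the limit on only 1 array. S1pr1, the egress receptor, was at -0.042.

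Some markers of the thymocyte stages that bear these receptors were lower too. Of 10 double positive markers 3 fell, Rag1 (-1.13, SD 0.53), Satb1 (-1.02, SD 0.10) and Cd4 (-0.67, SD 0.015), and none rose. Over all genes 1.11% were called lower. In this list 7 lay below 0 on both arrays, where 25.0% of all genes did. Dntt lay above on both (0.56 and 0.050), and Cd8a and Ptcra differed in sign. The list's median was -0.35, with array medians of -0.14 for null in Cy5 and -0.60 for null in Cy3. Of 9 genes listed as mature single positive markers 5 fell and none rose, beside the same 1.11% of all genes. These were Cd69 (-2.06, SD 0.062), Gimap4 (-1.65, SD 0.33), Cd52 (-1.58, SD 0.31), Klf2 (-0.98, SD 0.25) and Il7r (-0.91, SD 0.45). The 4 not called were Cd5 (-0.50 for null in Cy5 and -0.64 for null in Cy3), Foxo1 (-0.25), S1pr1 (-0.042) and Itgb7. Itgb7 differed in sign (-0.43 and 0.15), and 8 of the 9 lay below 0 on both arrays, where 25.0% of all genes did. The list had a median of -0.91 and array medians of -0.59 and -1.16. How far its genes are confined to that stage was not tested. Whether the share of either stage differed between the pools was not tested. None of 9 markers of regulatory and innate-like T cells was called, at a median of -0.056 and array medians of -0.044 and -0.091. Ccl25, Xcr1, S1pr1 and Itgb7 stand on more than 1 of the lists described here.

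Markers of other cell types were lower in part and higher in part, where 1.11% of all genes were called lower and 0.412% higher. Of 10 macrophage and dendritic cell markers Cd74 (-0.75) and H2-Eb1 (-0.82) fell, and the list's median was -0.087. Itgax (-0.24 for null in Cy5 and -0.996 for null in Cy3) and Lyz2 (-0.96 and -0.30) passed the limit on only 1 array, and Adgre1 (0.060), Itgam (0.072) and C1qa (-0.16) on neither. Of 8 thymic epithelium markers Krt5 (-0.98) and Epcam (-0.69) fell, and the median was -0.21. Of these 8, 6 lay below 0 on both arrays, where 25.0% of all genes did. Krt8 (-0.23), Aire (-0.21), Dll4 (-0.066) and Foxn1 (0.040) were not called. Of 5 B cell markers Cd79a (-0.68) fell, and none of 8 fibroblast and endothelium markers was called. Of 7 neutrophil markers 4 rose, Ngp (1.34), S100a8 (1.22), S100a9 (0.96) and Camp (0.69). The part of these cell types in the receptor and ligand ratios was not tested.

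**Figure D5:**
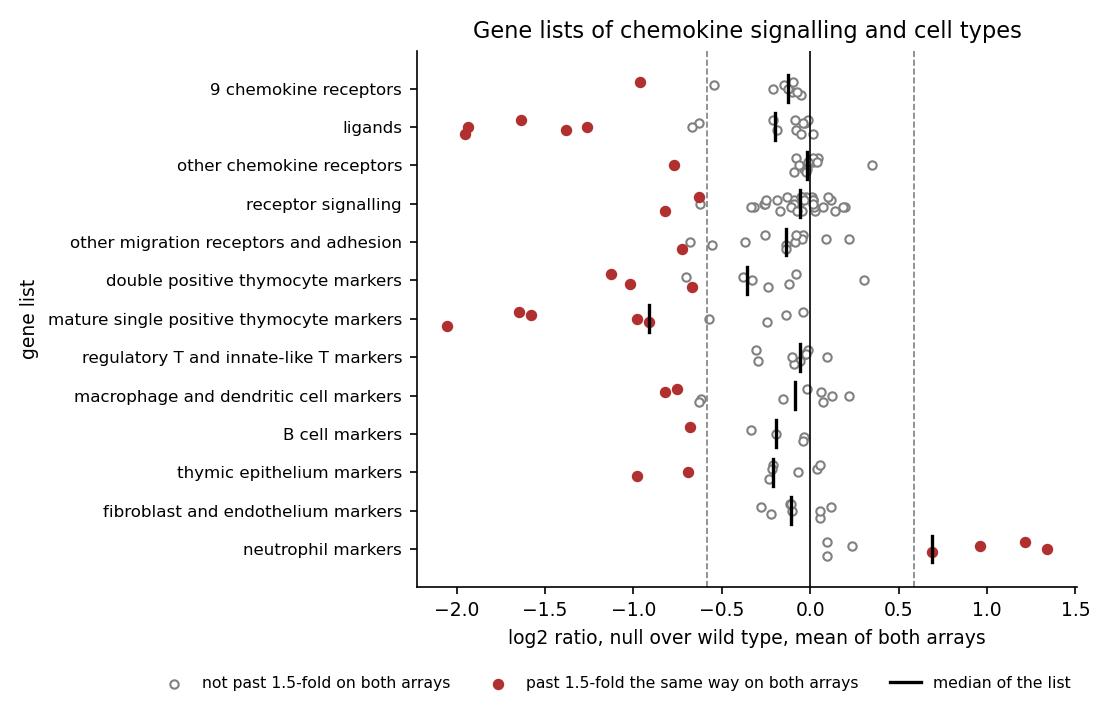
Mean log2 ratio of null over wild type (horizontal axis) of each measured gene in the 9 receptors and 12 further lists, filled where a gene passed 1.5-fold the same way on both arrays, with black bars for list medians and dashed 1.5-fold limits. The receptors' median is -0.12, that of mature single positive markers -0.91 and that of neutrophil markers 0.69.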

How the data were processed

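Each genotype's pool of RNA from 3 mice was amplified, labelled and hybridised to Agilent mouse arrays (750 ng per dye, 17 h), per the series' design text. Signals were extracted with Agilent's Feature Extraction software, version 7.1, per the submitters' processing notes. The deposited values are log ratios without intensities, taken as log10 by the convention of this software and converted here to log2. Neither the base nor any centring is given in the sources used here. The deposited log10 columns had medians of -0.00141 (null in Cy5) and 0.00112 (null in Cy3), which were not subtracted.

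Zeros appear as 0 in the first column (80) and as -0 in the second (82), which multiplication by -1 would leave, so the second was read as null over wild type already. Across 1030 genes with exactly 2 features, the mean of the arrays correlated between features with r = 0.326, and the difference of the arrays divided by 2 with 0.0386. Scale and direction are thus inferred.

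Of 22393 features, 18218 have 1 gene symbol, 16 several and 4159 none. Gene IDs gave current RefSeq (GRCm38.p6) symbols for 18175, and features of a gene were averaged into 16504 genes. Array number limits the precision: the SD between arrays had a root mean square of 0.25 over genes. The arrays correlated over genes with r = 0.238, and 8259 of the 16504 genes differed in sign between them. At 1.5-fold, 0.436% of genes went opposite ways, beside 1.11% called lower and 0.412% called higher. No filter on dim features was possible. The targeted gene is not reported here.

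Members, lists and thresholds were chosen with earlier results of these data known. All 9 receptors and their listed ligands are named, and of other lists the genes that passed the call rule; genes named otherwise, as not called or as neighbours, were picked with their values in view. The call rule was tested on simulated data with changes of 2-fold or more only, so falls as small as those of the receptors were not covered. Alternatives were each array alone, centring, the largest feature per gene, the log base, the sign of the second column, other thresholds and unupdated symbols. Python 3.11.15, numpy 2.4.6, pandas 2.3.3 and matplotlib 3.10.9 were used.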

Additional observations from a re-analysis of the deposited data

How the results depend on the processing

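No paired analysis was possible because both arrays carry 1 pair of pools, which allows no test. The count of 1 lower receptor was 1 on each array alone, with centring and with the largest feature per gene. Of all genes, 2.47% were lower with null in Cy5 alone and 2.68% with null in Cy3 alone. The share was 1.12% with centring and 1.13% with the largest feature. The receptor count was 2 at 1.3-fold (2.30% of all genes). It was 0 at 2-fold (0.261%), with the values read as log2 (0.0242%), and with both columns read as raw (0.339%). No receptor was higher under any of these. The receptors' median of -0.12 was -0.15 on the array with null in Cy5 alone and -0.15 with null in Cy3 alone, -0.037 with the values read as log2, and 0.017 with both columns read as raw. On the raw reading Ccr9 was at -0.26, Ccr7 at 0.024 and Cxcr3, then second lowest, at -0.071, and 5 of the 9 receptors were above 0. That reading subtracts the second column from the first before averaging. It turned the sign of 15 called genes among those on the lists, the only genes checked for this. These were Ccl21c (0.14), Ccl20 (0.17), Ccl12 (0.13), Cxcl10 (0.33), Cxcr6 (0.13), Rgs1 (0.036), Rag1 (0.38), Klf2 (0.17), Il7r (0.32), Cd69 (0.044), Cd52 (0.22), Cd74 (0.10), H2-Eb1 (0.025), Krt5 (0.12) and Camp (-0.00090). Read as log2 or as raw, the 5 lower ligands, 3 lower double positive and 4 higher neutrophil genes gave 0 calls, and the 5 lower mature markers gave 1 (log2) or 0 (raw). On single arrays, beside the single-array shares given above, lower calls went to 5 of 10 double positive markers with null in Cy3. With null in Cy5 they went to 3 of 13 migration and adhesion genes, 2 of 13 other receptors and 1 of 9 regulatory and innate-like T markers. Smaller shifts were to 7 of 16 ligands and 6 of 9 mature markers with null in Cy3. On either array alone, 3 of 34 signalling genes and 3 of 10 macrophage and dendritic cell markers were lower. With null in Cy3 alone, 1 other receptor and 1 signalling gene were higher, beside 2.92% of all genes. Unupdated symbols changed no receptor's value. Without intensities, a receptor near 0 cannot be told from one near background.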
